A study of Mus musculus with 40 samples.

Results

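The genes ND1, ND2, ND3, ND4, ND4L and ND5 are the mitochondrially encoded subunits of respiratory complex I whose messages are copied from the heavy strand of mitochondrial DNA. They were taken by name from the count files, where they are 6 of 40213 gene symbols and 6 of the 13 mitochondrial mRNAs; all 6 passed the filter on low counts in both tissues. The seventh mitochondrial complex I gene, ND6, lies on the other strand and was used for comparison. RNA was sequenced from midbrain and spinal cord of male C57BL/6N mice, 8 weeks old, with 4 libraries in each of 5 groups per tissue and 40 libraries in all. The sources used here do not say whether replicates are separate animals, so the p-values measure only the spread between these libraries.

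The Con mice received saline. The other groups received the neurotoxin MPTP at 20 mg/kg into the peritoneum, 4 times with 2 h between injections, which damages dopamine neurons and serves as an acute model of Parkinson's disease. From 1 week later an injection into the acupoint GB34 was given 2 times a week, 4 times in all. It held saline in the Con and MPTP-Veh groups and SUEHP, a herbal preparation for pharmacopuncture, in the MPTP-SU group. The MPTP-SU+S group had SUEHP with SR141714A at 3 mg/kg, described as an antagonist of the cannabinoid receptor CB1. That name is spelled as in the sample labels, and the paper gives the compound another number. The MPTP-SU+T group had SUEHP with T0070907 at 5 mg/kg, an inhibitor of PPARγ. All of the treated groups thus carried MPTP, and no group received SUEHP, SR141714A or T0070907 without it.

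Complex I is the largest enzyme of the respiratory chain and passes electrons from NADH to ubiquinone while it pumps protons across the inner membrane. Its proton-pumping membrane arm is built on subunits made inside the mitochondrion, and the rest of the enzyme comes from nuclear genes. The heavy strand is transcribed as long precursors that are cut at the tRNAs between the genes, and the toxic metabolite of MPTP is known as an inhibitor of complex I.

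The sequences below are the last 30 bases of each coding sequence (GENCODE M21 gene models, build GRCm38), shown because the libraries were made from poly(A) RNA and most mitochondrial messages carry their tail at or near the end of the reading frame. The message of ND5 is an exception and runs on past its stop codon, opposite ND6. Capitals mark the stop codon or what is left of it.
ND1: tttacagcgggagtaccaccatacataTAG
ND2: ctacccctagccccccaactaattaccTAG
ND3: acacaaaaaggattagaatgaacagagTAA
ND4L: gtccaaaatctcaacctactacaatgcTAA
ND4: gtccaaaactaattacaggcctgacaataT
ND5: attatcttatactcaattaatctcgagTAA
ND1 and ND2 end in TAG, and ND3, ND4L and ND5 end in TAA. ND4 ends in a lone T, its length of 1378 bases leaving 1 base over after division by 3, so that its stop codon is completed only by the added tail.

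ND4L and ND4 are read from the same message. The end of ND4L and the start of ND4 share 7 bases, in capitals:
end of ND4L: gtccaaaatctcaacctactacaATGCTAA
start of ND4: ATGCTAAaaattattcttccctcactaatg
The end of ND5 shares 14 bases with the end of ND6 on the opposite strand, in capitals here:
end of ND5: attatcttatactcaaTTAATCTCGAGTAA
Reads over these bases could be given to either gene of a pair, and the sources used here do not say whether strand was used in counting, so the split of reads within ND4L and ND4 and within ND5 and ND6 is uncertain.

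Runs of A inside a message may matter for libraries selected on poly(A). A window of 30 bases around the longest run in each gene, with the run in capitals, reads as follows. ND3, ND4 and ND4L each hold 2 runs of that length, of which the first is shown.
ND2: tactaatcaacAAAAAAAAcccacgatcaa
ND4: tatcaagccctAAAAAAAcctgaacaaacg
ND5: aaaacgacatcAAAAAAAtcattgccttct
ND1: acatcttctatgAAAAAActttctacccct
ND3: atctgtactcagAAAAAgcaaatccatatg
ND4L: tagccctactagtAAAAgtttcaaacacgt
The run of 8 in ND2 was the longest in any of the 13 mitochondrial mRNAs, ND4 and ND5 held runs of 7, ND1 of 6, ND3 of 5 and ND4L of 4. Whether these runs affect the counts was not tested.

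The libraries held 11958200 to 16639823 counts in midbrain and 14642808 to 16615378 in spinal cord. Together the members took 3.03% to 5.83% of the counts in 19 midbrain libraries and 3.72% to 6.72% in the 20 spinal cord libraries. Replicate 4 of the midbrain MPTP-Veh group stood apart, with 0.413% (95% Wilson interval 0.410% to 0.417%, counting error only). In that library all 13 mitochondrial mRNAs together came to 1.35% of the counts, against 9.92% to 17.5% in the other midbrain libraries. Its summed marker levels were also apart: the 6 oligodendrocyte markers came to 31426 CPM (the count relative to the library total) against 9143 to 13990 elsewhere in midbrain, and the 5 red blood cell genes to 2248 against at most 422. Microglia markers came to 305 CPM against at most 186 and blood vessel markers to 463 against at most 280 in the other midbrain groups, and astrocyte markers to 1646, the lowest in midbrain. The nuclear long RNAs, a list that reads RNA quality and the nuclear share, came to 13119 CPM, against 6660 to 8553 in the groups other than MPTP-Veh. The part of these in its low member levels was not tested, and the midbrain fold changes of the members are given with and without it. Markers of each tissue fit the labels: the midbrain list summed to 160 to 436 CPM in midbrain and 22.6 to 31.8 in spinal cord. The spinal cord list summed to at most 1.67 CPM in midbrain and 489 to 613 in spinal cord. The 1.67 CPM was again MPTP-Veh replicate 4, against at most 0.339 in the other midbrain groups. In bulk tissue, fewer cells of a type and less RNA per cell cannot be told apart.

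Per length, ND1 and ND4 were the most abundant members and ND3 the least. In midbrain Con, the mean level per kilobase of coding sequence was 13663 CPM for ND1, 12491 for ND4, 8951 for ND2, 8546 for ND4L, 5489.9 for ND5 and 3111 for ND3. In spinal cord Con the order was the same, from 11161 CPM per kilobase for ND1 down to 2543 for ND3. ND6 was far below all 6, at 152 CPM per kilobase in midbrain and 205 in spinal cord. ND5, the longest at 1824 bases, was above only ND3 per length.

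**Figure D1:**
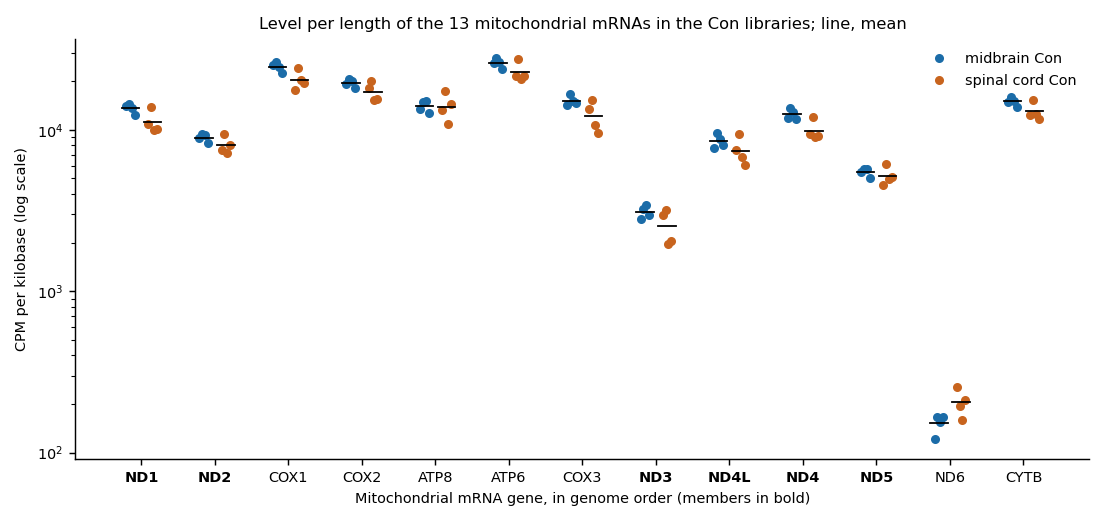
Level per length of the 13 mitochondrial mRNAs in the Con libraries of midbrain (blue) and spinal cord (orange), in CPM per kilobase on a log axis, with the genes in genome order and the members in bold; each point is a library and each line a mean of 4. ND6, on the light strand, sits at 152 and 205, below every member.

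Between the Con groups of the tissues no member passed the test in the model of all 40 libraries. Midbrain against spinal cord gave log2 fold changes from 0.10 (ND5) to 0.35 (ND4), with adjusted p between 0.373 and 0.851 (edgeR, 40 libraries together). The test called 16.4% of the 17426 genes between these tissues, where a call is an adjusted p below 0.05 with a fold change above 1.5, and 0 of the 6 members; 0 members had an unadjusted p below 0.05 either. DESeq2 and limma-voom also called 0 members. With only the Con libraries in the fit, the adjusted p was 0.0356 for ND1 and 0.0133 for ND4, both under 1.5-fold. In the fit of all 40 libraries an adjusted p below 0.05 alone held for 29.8% of genes and 0 members, and the share in the Con fit is not given here.

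Of 6 comparisons run per tissue with all of its libraries in the fit, those in which members passed an adjusted p of 0.05 were in spinal cord, between the MPTP-SU+T group and the groups given SUEHP alone or with SR141714A. All 6 members were lower in every MPTP-SU+T library than in any MPTP-SU library. Values below are CPM scaled by TMM, in replicate order from 1 to 4.

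ND2, a core subunit of the proton-pumping arm, stood at 10341, 10162, 10839 and 9776 CPM in spinal cord MPTP-SU and at 7085, 7795, 6840.5 and 7996 in MPTP-SU+T. The ranges are separate, and no MPTP-SU+T library reached the lowest MPTP-SU library. ND2 fell by 0.47 on the log2 scale (SE 0.0812, 0.723-fold, adjusted p = 0.0291, edgeR). This was below the 1.5-fold limit of a call.

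ND4, another proton-pumping subunit, read 17407, 16585, 18187 and 17564 CPM in MPTP-SU and 12321, 14046, 12209 and 13770.2 in MPTP-SU+T. The difference was -0.41 on the log2 scale (adjusted p = 0.143, SE 0.098). ND5, the largest of the pump subunits, read 11974, 11229, 11744 and 11967 and 8319, 10085, 8892 and 10132 CPM, which is -0.33 on the log2 scale (adjusted p = 0.195, SE 0.0929). In both genes the 4 MPTP-SU libraries lay close together and above all of MPTP-SU+T, and the adjusted p missed the threshold.

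ND1, which lies where the membrane arm meets the arm that takes up electrons, read 13483, 13153, 14424 and 14004 CPM in MPTP-SU and 9989, 11180.5, 9432 and 11614 in MPTP-SU+T. The log2 difference was -0.38, with SE 0.0957 and adjusted p = 0.162. The small subunits ND3 and ND4L had the largest and the smallest log2 difference of the 6, and neither passed the test. ND3 read 1037, 1015, 1189.8 and 991 and then 809, 821, 606 and 743 CPM (log2 fold change -0.51, SE 0.143, adjusted p = 0.185). ND4L read 2689, 2634, 2844 and 2630.4 and then 2277, 2304, 2046 and 2192 CPM (log2 fold change -0.29, SE 0.108, adjusted p = 0.286).

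In this comparison 0 of 6 members were called, against 0.024% of the 16682 genes tested, and DESeq2 and limma-voom called 0 as well. At an adjusted p alone ND2 passed with edgeR and with limma-voom, and ND1, ND2 and ND4 with DESeq2. By edgeR that limit alone held for 0.036% of genes, and the shares with the other tools are not given here. All 6 members had an unadjusted p below 0.05, against 12.1% of genes. The groups did not overlap for any of the 6, all lower in MPTP-SU+T, against 4.1% of genes that were lower without overlap. This was not particular to complex I: COX1, COX2, CYTB, ATP6 and ATP8 were lower without overlap as well, while COX3 and ND6 overlapped. An exact permutation test gave p = 0.0286 for each member, two-sided, the smallest that 4 against 4 libraries allow. The adjusted p of ND2 rose to as much as 0.18 when single libraries were left out, and it passed 0.05 in 13 of 20 such fits. With only these 8 libraries in the fit, the adjusted p of all 6 members lay below 0.05, the highest at 0.0388 (ND5). The share of all genes below 0.05 in that fit is not given here, so this count has no background beside it.

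The MPTP-SU+S group shows the same members beside a second group of mice given SUEHP. This comparison was added after the data had been seen, and it shares the MPTP-SU+T libraries with the one above. ND4 read 15212, 20752, 21425 and 21859.9 CPM in spinal cord MPTP-SU+S, ND2 9212, 10956, 11507 and 11912, and ND1 12642, 15735, 16457 and 16862. For ND5 the libraries read 10446, 13497, 14175 and 14661, for ND3 932, 1101, 1124 and 1218 and for ND4L 2319, 2981, 3267 and 3334 CPM. Replicate 1 was the lowest of its group in every member, and it too lay above all 4 MPTP-SU+T libraries in each.

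From MPTP-SU+S to MPTP-SU+T, all 6 members fell at an adjusted p below 0.05 (edgeR). ND4 fell by 0.60 on the log2 scale (SE 0.0982, adjusted p = 0.00558), ND2 by 0.55 (adjusted p = 0.00436) and ND1 by 0.55 (adjusted p = 0.0098). ND3 fell by 0.55 (adjusted p = 0.0395), ND5 by 0.50 (adjusted p = 0.012) and ND4L by 0.43 (adjusted p = 0.037). Only ND4 was past 1.5-fold as well, so 1 of 6 members was called, against 0.12% of genes; DESeq2 and limma-voom called ND4 alone as well. The adjusted p alone held for 3.06% of genes, and 5.84% of genes were lower without overlap, as were all 6 members. The single call rests on a fold change close to the limit: from 0 to 5 members were called when single libraries were left out, 0 of them without MPTP-SU+S replicate 2, 3 or 4 or without MPTP-SU+T replicate 1 or 3, and 5 without MPTP-SU+S replicate 1. The share of all genes called in each of those fits is not given here, so these counts have no background beside them. The adjusted p of ND3 passed 0.05 in 12 of 20 such fits (up to 0.147 in the others) and that of ND4L in 14 of 20 (up to 0.133). ND1 and ND4 passed in 19, ND5 in 18 and ND2 in all 20, and with library size alone ND3 (adjusted p = 0.0785) and ND4L (adjusted p = 0.0665) did not pass.

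Most cell type markers overlapped between these groups. The 6 neuron markers summed to 6323 to 7207 CPM in MPTP-SU+T and to 6959 to 7444 in MPTP-SU, and the 6 astrocyte markers to 4084 to 4780 against 4513 to 4671. Motor neuron markers summed to 118 to 156 CPM in MPTP-SU+T and to 157 to 175 in MPTP-SU. Those 5 motor neuron markers were thus lower without overlap in MPTP-SU+T, though close in value apart from 1 library at 118, and their part in the result was not tested.

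**Figure D2:**
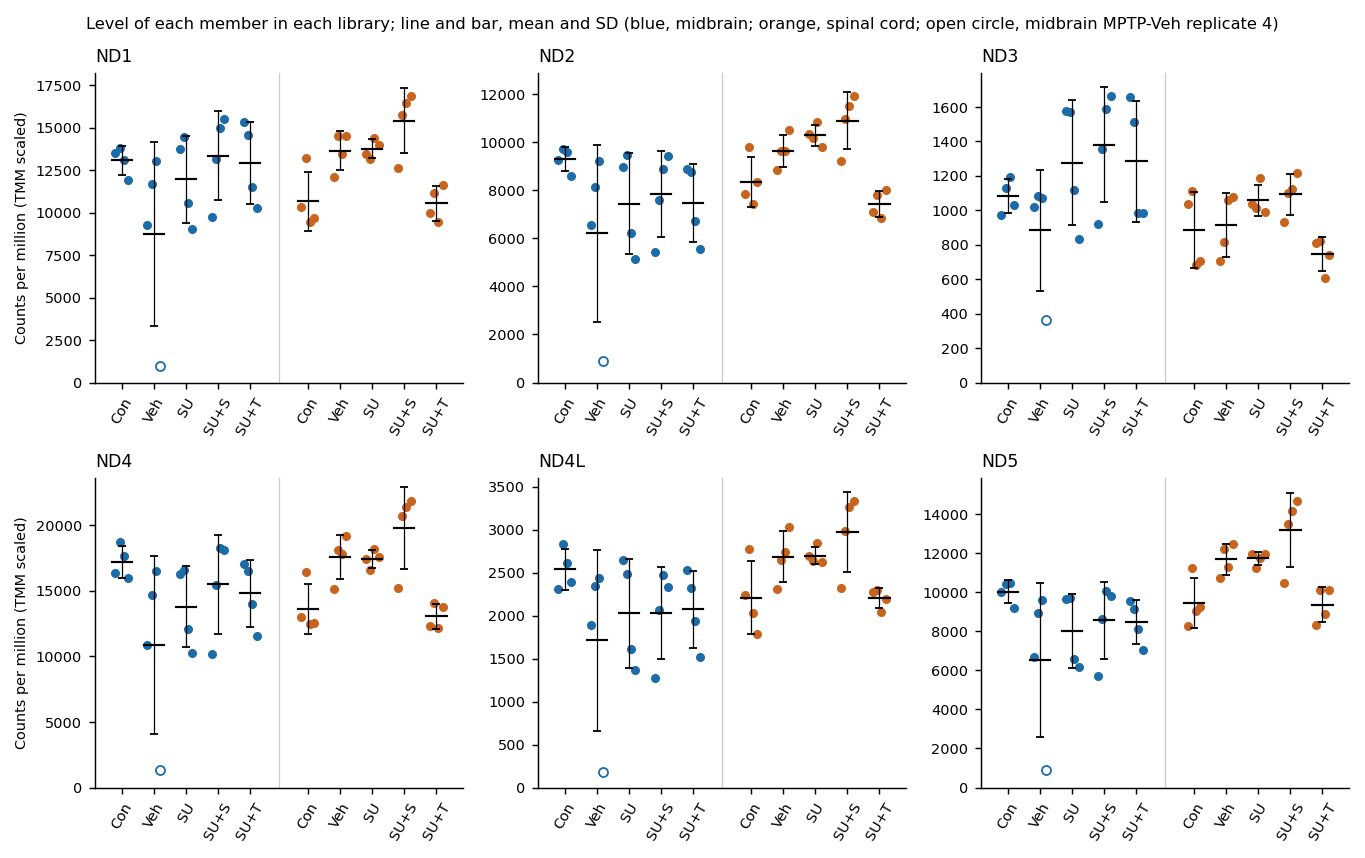
Level of each member in each library, in TMM-scaled CPM, by treatment group, with labels less the prefix MPTP, in midbrain (blue) and spinal cord (orange), with lines for the mean and bars for the SD of 4 libraries. In spinal cord the MPTP-SU+T points sit below all MPTP-SU and MPTP-SU+S points in all 6 genes, and the open circle is midbrain MPTP-Veh replicate 4, at 175 CPM for ND4L and 1324 CPM for ND4.

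Against Con, 5 members had higher spinal cord means after MPTP and ND3 a near equal one, and no difference passed the adjusted test. ND4 read 12977, 16463, 12478 and 12584 CPM in Con and 15188, 18129, 17805 and 19201 in MPTP-Veh. ND1 read 10319.7, 13221, 9473 and 9709 CPM in Con and 12129.9, 14524, 13457 and 14506 in MPTP-Veh. In both genes Con replicate 2 was the highest of its group and lay within the MPTP-Veh range, while the other 3 Con libraries lay below it.

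ND2 read 7827, 9802, 7406 and 8355 CPM in Con and 8860.1, 9617, 9624 and 10492 in MPTP-Veh, and ND5 8257, 11252, 9013 and 9231 and 10745, 12217, 11265 and 12460.4. ND4L read 2238, 2780.4, 2027 and 1784 CPM in Con and 2315, 2652, 2746 and 3038 in MPTP-Veh. ND3 read 1038, 1111, 683 and 708 and 705, 814, 1059 and 1079 CPM, with both groups over the same range. The groups overlapped in all 6 members.

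The log2 fold changes from Con to MPTP-Veh were 0.37 for ND4 (SE 0.098), 0.35 for ND1, 0.31 for ND5, 0.28 for ND4L, 0.21 for ND2 and 0.05 for ND3, with adjusted p from 0.190 to 0.921 (edgeR). The test called 0 members and 0.0% of genes, and DESeq2 and limma-voom called 0 members. At an unadjusted p below 0.05 there were 5 members, all but ND3, against 12.8% of genes. Con replicate 2 carries weight here: without it the adjusted p of ND1, ND2, ND4, ND4L and ND5 lay between 0.0115 and 0.0344. With no low-count filter it was 0.0445 for ND1 and 0.0405 for ND4. The shares of all genes below 0.05 in these fits are not given here, so the members are not set against a background in them.

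MPTP-SU in spinal cord lay near MPTP-Veh, with log2 fold changes of -0.01 (ND4) to 0.21 (ND3), adjusted p of at least 0.999, 0 members called and 0.0% of genes. No member had an unadjusted p below 0.05, against 3.81% of genes. Against Con, MPTP-SU gave log2 fold changes from 0.26 (ND3) to 0.37 (ND1), with adjusted p of at least 0.470, and 0 members and 0.0% of genes were called; 5 members had an unadjusted p below 0.05, against 9.17% of genes. Without Con replicate 2 the adjusted p of ND1, ND2, ND4 and ND5 lay between 0.0252 and 0.0395, and with no low-count filter that of ND1 was 0.0415. How many of all genes lay below 0.05 in those fits is not given here. ND4 was the 1 member higher without overlap, against 1.64% of genes. MPTP-SU+S against MPTP-SU gave 0.05 (ND3) to 0.18 (ND4) on the log2 scale, adjusted p of at least 0.899, with 0 members and 0.0% of genes called; no unadjusted p of a member was below 0.05, against 5.49% of genes.

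Ordered by mean level, spinal cord MPTP-SU+S was highest and MPTP-SU+T lowest in every member, with Con next to lowest. Neighbours in that order overlapped in all 6 genes, apart from ND4 between MPTP-SU and Con. For ND4 the means were 19812 ± 3100.5 (SD, n = 4) CPM in MPTP-SU+S, 17581 ± 1703 (SD, n = 4) in MPTP-Veh and 17436 ± 659.8 (SD, n = 4) in MPTP-SU. They were 13626 ± 1904 (SD, n = 4) in Con and 13087 ± 956 (SD, n = 4) in MPTP-SU+T. The Con libraries also had lower astrocyte markers than the MPTP-Veh and MPTP-SU libraries, at 3674 to 4323 CPM summed over 6 genes against 4736 to 4977 and 4513 to 4671; motor neuron markers came to 126 to 159.3 CPM in Con and to 159.6 to 171 in MPTP-Veh. The part of both lists in the member levels was not tested.

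In midbrain no member passed the test in the 6 comparisons run, with or without MPTP-Veh replicate 4. In neither tissue was MPTP-SU+S or MPTP-SU+T tested against MPTP-Veh or Con. ND4 read 16396, 18748, 17697 and 16008 CPM in midbrain Con, 10865, 14729.7, 16518 and 1324 in MPTP-Veh and 16312, 16566, 12128 and 10251 in MPTP-SU. ND1 read 13492, 13787, 13128 and 11897 CPM in Con, 9265, 11699, 13029 and 974 in MPTP-Veh and 13738, 14478, 10546 and 9068 in MPTP-SU. The fourth value of MPTP-Veh is by far the lowest of its group in each, and the remaining libraries of the groups overlapped.

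ND2 read 9266, 9712, 9585 and 8600.3 CPM in Con, 6555, 8136, 9207 and 905 in MPTP-Veh and 8981, 9458, 6207 and 5126 in MPTP-SU. ND5 read 10023, 10396, 10460.0 and 9175, then 6665, 8940.4, 9582 and 909, then 9646, 9679, 6584 and 6184 CPM in the same groups. Con was the tightest group in both, and MPTP-SU split into a higher and a lower pair. ND4L read 2305, 2839.8, 2617 and 2391 CPM in Con, 1892, 2351, 2443 and 175 in MPTP-Veh and 2643, 2486, 1614 and 1365 in MPTP-SU.

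ND3 was the member least low in MPTP-Veh replicate 4. It read 973, 1129, 1194 and 1034 CPM in Con, 1021, 1082, 1071 and 361 in MPTP-Veh and 1576, 1573, 1120.2 and 836 in MPTP-SU. Over all 20 midbrain libraries ND3 spanned 4.60-fold from lowest to highest and ND4L 16.2-fold; without that library the 6 members spanned 1.71-fold (ND1) to 2.23-fold (ND4L), close to the 1.74-fold to 2.01-fold of spinal cord.

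From Con to MPTP-Veh the midbrain log2 fold changes ran from -0.29 (ND3) to -0.66 (ND4), with adjusted p of 0.337 to 0.525 (edgeR); 0 members and 0.018% of the 16629 genes were called. Without replicate 4 they ran from -0.03 (ND3) to -0.29 (ND4), with adjusted p of 0.590 to 0.974, and 0.00594% of 16831 genes were called. For ND4 the 95% interval narrowed from -1.57 to 0.24 to -0.71 to 0.12, which still holds both no difference and a fall of more than 1.5-fold. At an unadjusted p below 0.05 there were 0 members, against 23.7% of genes in the fit with all libraries. The groups were apart in astrocyte markers, at 2565 to 2784 CPM in Con and 1646 to 2325 in MPTP-Veh, and in nuclear long RNAs, at 7518 to 8266 and 9245 to 13119 CPM, and their part in the result was not tested.

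From MPTP-Veh to MPTP-SU the sign of 4 members turned on that library. With it the log2 fold changes were 0.45 for ND1, 0.26 for ND2, 0.53 for ND3, 0.35 for ND4, 0.24 for ND4L and 0.30 for ND5 (adjusted p 0.177 to 0.716, edgeR). Without it they were 0.08, -0.10, 0.27, -0.02, -0.14 and -0.07 in the same order (adjusted p 0.452 to 0.956). The test called 13.5% of genes with the library, 9.1% of genes on the lower side, and 3.4% without it, and 0 members in either. An adjusted p below 0.05 alone held for 20.1% of genes and 0 members, and no member had an unadjusted p below 0.05, against 39.8% of genes with all libraries. DESeq2 and limma-voom called 0 members too.

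MPTP-SU against Con gave log2 fold changes of -0.13 for ND1, -0.32 for ND2, -0.32 for ND4, -0.32 for ND4L and -0.32 for ND5, and 0.24 for ND3, the only member on the higher side. Adjusted p lay between 0.751 and 0.924 with all libraries in the fit and between 0.219 and 0.643 without MPTP-Veh replicate 4. The test called 0 members and 0.764% of genes, or 4.67% without that library. An adjusted p below 0.05 alone held for 1.25% of genes (1.02% lower) and 0 members, and no member had an unadjusted p below 0.05, against 16.1% of genes. CPM ranges overlapped for all 6 members, while 10.9% of genes were lower and 8.73% higher without overlap.

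In midbrain the SD of ND4 was 3789 CPM in MPTP-SU+S, 2532 in MPTP-SU+T and 3128 in MPTP-SU, and MPTP-SU+T had a smaller SD than MPTP-SU in all 6 members. ND4 read 10167, 15427, 18279.9 and 18124 CPM in MPTP-SU+S and 17086, 16551, 14010.0 and 11588 in MPTP-SU+T, and ND2 5440.2, 7612, 8889.9 and 9439.5 and 8870.5, 8751, 6735 and 5549. ND3 read 919, 1358, 1586 and 1663 and 1656, 1512, 983 and 987 CPM. Against MPTP-SU the log2 fold changes of the members were 0.01 to 0.17 in MPTP-SU+S and 0.01 to 0.11 in MPTP-SU+T. Between MPTP-SU+T and MPTP-SU+S they were -0.10 to 0.03. All adjusted p were 1 with all libraries in the fit, 0.0% of genes and 0 members were called in each, and unadjusted p below 0.05 took 1.65%, 1.7% and 0.782% of genes and no member. For ND4 the 95% interval of MPTP-SU+T against MPTP-SU was -0.28 to 0.48 without MPTP-Veh replicate 4, beside -0.62 to -0.21 in spinal cord, whose difference was not tested.

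**Figure D3:**
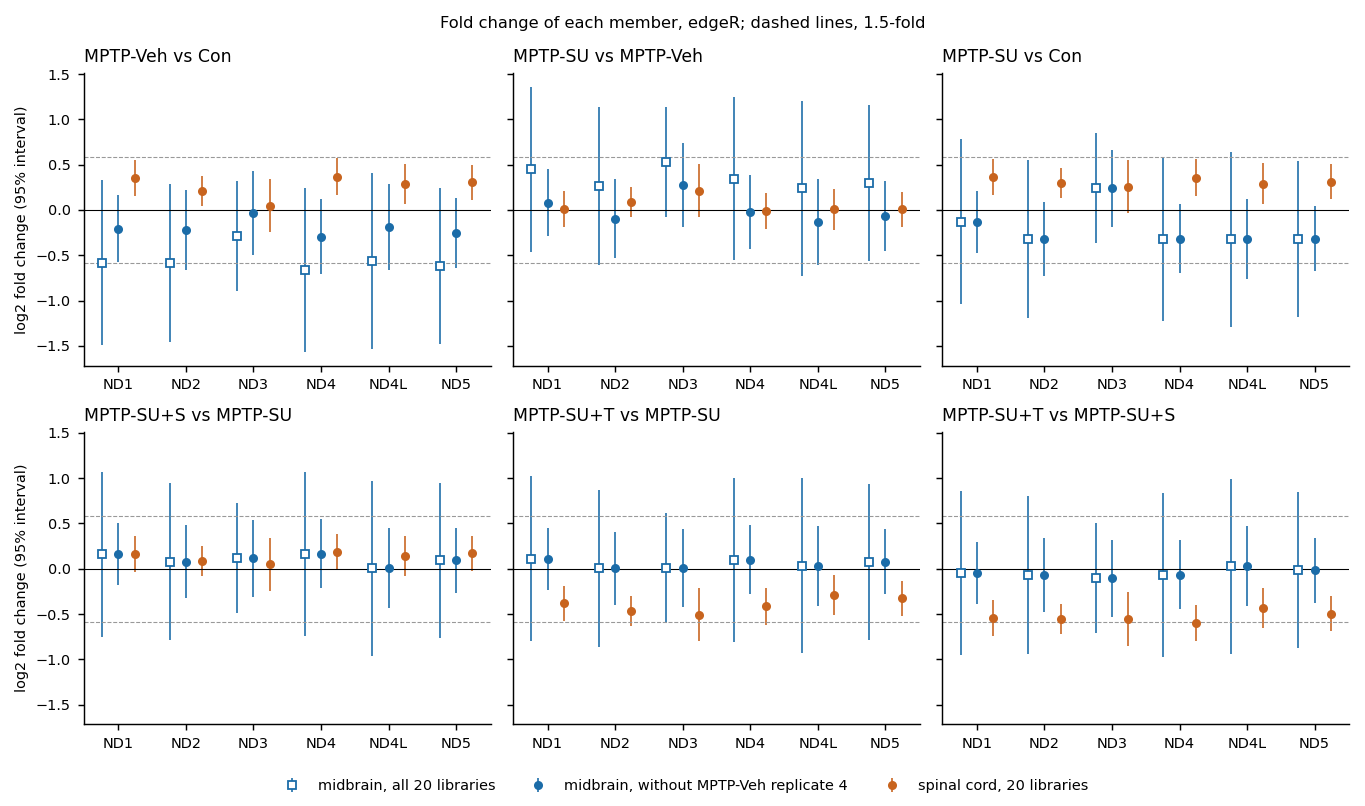
Log2 fold change of each member with its 95% interval (edgeR) in 6 comparisons, for midbrain with all 20 libraries (open squares), midbrain without MPTP-Veh replicate 4 (blue circles) and spinal cord (orange circles); dashed lines mark 1.5-fold. The spinal cord intervals of MPTP-SU+T against MPTP-SU and against MPTP-SU+S lie below 0 for all 6 members, and the midbrain intervals include 0 throughout.

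The step from Con to MPTP-Veh was compared between the tissues in a model of all 40 libraries. The difference of the log2 fold changes, midbrain less spinal cord, ran from -0.35 (ND3) to -1.04 (ND4), with adjusted p of 0.140 to 0.503 (edgeR), and 0 members and 2.45% of genes were called. ND1, ND4 and ND5 had an unadjusted p below 0.05, against 27.7% of genes. Without midbrain MPTP-Veh replicate 4 it ran from -0.08 (ND3) to -0.66 (ND4), with adjusted p of 0.109 to 0.922, and 0.55% of genes were called. For MPTP-SU against MPTP-Veh the difference was 0.18 to 0.44 with all libraries, with adjusted p of 0.512 to 0.802; 0 members and 12.1% of genes were called, and no member had an unadjusted p below 0.05, against 34.6% of genes. Without that library the difference was -0.17 to 0.08, and 0 members and 3.9% of genes were called.

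The share of each member in the counts of the 13 mitochondrial mRNAs does not depend on the scaling of the libraries. In midbrain, ND2 took 5.90% to 6.13% of these counts in Con and 5.82% to 6.02% in MPTP-Veh, replicate 4 included at 5.94%. It took 4.78% to 5.81% in MPTP-SU, 4.98% to 5.39% in MPTP-SU+S and 4.64% to 5.29% in MPTP-SU+T. Every library given SUEHP was thus below every Con and every MPTP-Veh library, with MPTP-SU replicate 2 the closest at 5.81%. From MPTP-Veh to MPTP-SU the ND2 share was the 1 of 6 member shares lower without overlap, against 23.1% of the 13 mRNAs, or 30.8% without replicate 4, so the members do not stand out.

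ND3 went the other way. Its share was 0.635% to 0.765% in midbrain Con, 0.779% to 1.01% in MPTP-SU, 0.858% to 0.950% in MPTP-SU+S and 0.726% to 0.971% in MPTP-SU+T, with MPTP-Veh replicate 4 at 2.37% beside 0.700% to 0.915% in its group. In MPTP-SU against Con, 3 members (ND2, ND4 and ND5) had a lower share without overlap, against 38.5% of the 13 mRNAs, and 1 (ND3) a higher share, against 23.1%. These fractions of the members are near those of all 13 mRNAs, and shares of one total move against each other. Mitochondrial rRNA took 1.58% to 1.84% of all counts in midbrain Con and 2.10% to 3.93% in MPTP-SU. The 6 neuron markers summed to 5028 to 5847 CPM in midbrain Con, 3965 to 4782 in MPTP-SU and 4587 to 4934 in MPTP-SU+S. In MPTP-Veh (4225 to 5419 CPM) and MPTP-SU+T (4355 to 5283 CPM) they overlapped Con. The rRNA share and the neuron markers were thus apart between Con and MPTP-SU, and their part in the shares and levels was not tested.

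In spinal cord, ND1 took 7.77% to 8.41% of the mitochondrial mRNA counts in Con, 8.71% to 9.08% in MPTP-Veh and 8.67% to 8.86% in MPTP-SU. ND4 took 10.24% to 10.48% in Con, 10.90% to 11.56% in MPTP-Veh, 11.01% to 11.19% in MPTP-SU and 10.23% to 10.71% in MPTP-SU+T. Both were higher without overlap in MPTP-Veh and in MPTP-SU than in Con, and these were the 15.4% of the 13 mRNAs that were. ND2, at 6.19% to 6.78% in MPTP-SU and 5.86% to 6.08% in MPTP-SU+T, and ND4 were lower in MPTP-SU+T than in MPTP-SU without overlap, against 23.1% of the mRNAs. Together the 6 members held 33.7% to 34.8% of the mitochondrial mRNA counts in Con, 35.9% to 36.6% in MPTP-Veh, 35.9% to 36.6% in MPTP-SU, 35.2% to 37.3% in MPTP-SU+S and 33.9% to 35.3% in MPTP-SU+T.

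**Figure D4:**
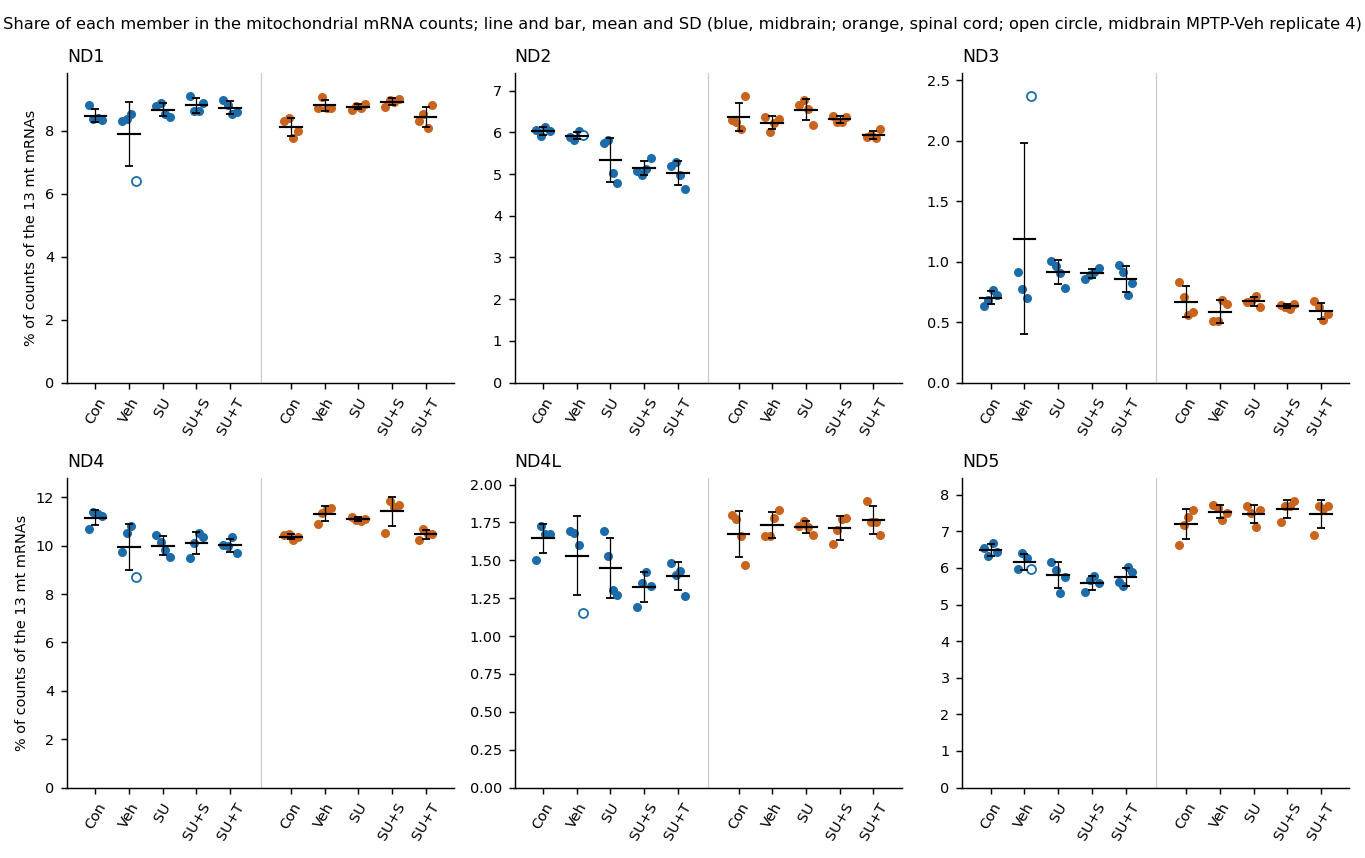
Share of each member in the counts of the 13 mitochondrial mRNAs, in percent, by group and tissue as in the plot of levels, with mean and SD of 4 libraries. In midbrain the ND2 share of all libraries given SUEHP lies below 5.90%, the lowest of Con, and MPTP-Veh replicate 4 (open circle) has an ND3 share of 2.37%.

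The ratios of members to each other varied unequally across libraries. Over the 20 spinal cord libraries the log2 ratio of ND1 to ND4 had an SD of 0.0445 and that of ND4 to ND5 of 0.0682, while the ratios with ND3 had SDs of 0.160 (to ND4L) to 0.227 (to ND5). Over 19 midbrain libraries, without MPTP-Veh replicate 4, the most constant ratio was ND4 to ND5, with an SD of 0.0613 and a 1.14-fold range. ND2 to ND3 varied 1.78-fold in the same libraries, ND1 to ND4L 1.58-fold, and ND4 to ND4L, which share a message, 1.39-fold. With that library included, ND4 to ND5 ranged 1.27-fold, ND2 to ND3 3.80-fold and ND3 to ND4L 5.18-fold, while ND4 to ND4L stayed at 1.39-fold. In spinal cord ND2 to ND4L ranged 1.51-fold.

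Likeness of other genes to the mean log2 level of the members was measured by the proportionality coefficient rho_p, which is 1 for a constant ratio. Among the other mitochondrial mRNAs, ATP6 was closest, at 0.964 over 19 midbrain and 0.977 over 20 spinal cord libraries, followed in these tissues by CYTB and COX2 at 0.933 to 0.943. ND6 was at 0.04 in midbrain and -0.28 in spinal cord. Outside the mitochondrial mRNAs the highest values were Mr1 at 0.875 and Kantr at 0.855 in midbrain, and Itgb8 at 0.922 and Ncam2 at 0.920 in spinal cord. These are descriptions over libraries that share groups, depth and scaling.

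ND6, the complex I gene of the light strand, had another pattern from the members. It stood at 62.5 to 86.3 CPM in midbrain Con, 78.1 to 149 in MPTP-Veh and 31.8 to 40.4 in MPTP-SU, with no overlap between MPTP-SU and the other two groups. From MPTP-Veh to MPTP-SU it fell by 1.65 on the log2 scale (adjusted p = 0.000343, edgeR), or by 1.48 (adjusted p = 4.0e-05) without MPTP-Veh replicate 4. With only the 8 libraries of these groups in the fit, edgeR called 0 genes of the whole table from MPTP-Veh to MPTP-SU, ND6 included (3219 of 15764 genes at an unadjusted p below 0.05), and 574 without MPTP-Veh replicate 4. From Con to MPTP-SU it fell by 1.15 (adjusted p = 0.00684). In MPTP-SU+S and MPTP-SU+T it stood at 30.8 to 44.7 and 32.7 to 44.3 CPM. Its counts are low beside those of ND5, with which it shares bases, and the part of misassigned reads was not tested.

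The other mitochondrial genes and the nuclear complex I genes give the setting of these results. From MPTP-SU to MPTP-SU+T in spinal cord all 7 of the other mitochondrial mRNAs had a negative log2 fold change, 6 of them at an unadjusted p below 0.05, with a median of -0.28. Of the 7 mitochondrial mRNAs that are no members, ND6 was the 1 called in midbrain from MPTP-Veh to MPTP-SU, and ATP8, a subunit of ATP synthase, the 1 called in spinal cord from MPTP-SU to MPTP-SU+T, where it fell by 0.61 on the log2 scale (adjusted p = 0.0291). ATP8 also fell from MPTP-SU+S to MPTP-SU+T, by 0.71 (adjusted p = 0.00436), and ATP6 by 0.49 there (adjusted p = 0.0098). In that comparison 5 of the 7 had an adjusted p below 0.05 on the lower side, beside all 6 members.

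The 37 nuclear complex I subunits tested are the partners of the members in the enzyme. In midbrain from MPTP-Veh to MPTP-SU, 11 of 37 were called lower and 0 higher, against 9.1% of all genes called lower, and the median log2 fold change was -0.47 against 0.00 for all genes. Without MPTP-Veh replicate 4, 5 were called lower, against 351 of 16831 genes, and the median was -0.28. The 11 calls are lost with only the 8 libraries of these groups in the fit, where 0 genes were called; the list was not counted in the like fit without replicate 4. The nuclear long RNAs moved with these groups, at 9245 CPM or more in every MPTP-Veh library, 7518 to 8266 in Con and 6660 to 7593 in MPTP-SU, and their part in the result was not tested. Ndufb3, an accessory subunit of the membrane arm, fell by 0.66 on the log2 scale (adjusted p = 0.00138) and by 0.60 (adjusted p = 0.000135) without that library, and Ndufa13 fell by 0.70 (adjusted p = 0.000158) without it. From Con to MPTP-Veh in midbrain, 17 of 37 were higher and 0 lower at an unadjusted p below 0.05, against 23.7% of all genes in either direction. The median there was 0.28, or 0.15 without replicate 4. From Con to MPTP-SU 8 were lower and 0 higher, against 16.1%, with a median of -0.12. At an unadjusted p below 0.05 in spinal cord, 12 of 37 were lower from Con to MPTP-Veh, against 12.8% of all genes in either direction, and 5 were lower from Con to MPTP-SU, against 9.17%. From MPTP-SU to MPTP-SU+T 5 were lower and 1 higher, against 12.1%, and from MPTP-SU+S to MPTP-SU+T 3 were lower and 6 higher, against 21.7%, where an adjusted p alone held for 1 in each direction. By edgeR 0 of 37 were called in any of these spinal cord comparisons, with medians from -0.10 to 0.01. The median from MPTP-SU to MPTP-SU+T was 0.00, where all 6 members were lower without overlap.

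Of 18 complex I assembly factors tested, out of 19 listed, 2 were called lower in midbrain from MPTP-Veh to MPTP-SU, near the 9.1% of all genes, Ndufaf1 at -0.65 (adjusted p = 0.0242) and Timmdc1 at -0.74 (adjusted p = 0.0321) on the log2 scale; without MPTP-Veh replicate 4 Ndufaf2 alone was called, at -0.70 (adjusted p = 0.00119). Of 15 genes for mitochondrial DNA replication and transcription, 1 was called lower there, the topoisomerase gene Top1mt at -1.26 (adjusted p = 0.0145), and 0 without that library. Of 18 genes for mitochondrial RNA processing and stability, 1 was called lower, the RNA exonuclease gene Rexo2 at -0.85 (adjusted p = 0.0173), and 0 without it. The 1 of 15 and the 1 of 18 lie below the 9.1% of all genes, and all of the calls with every library are lost with only the 8 libraries in the fit. In spinal cord edgeR called 0 genes of these 3 lists in every comparison; at an unadjusted p below 0.05 a list held at most 4 lower genes (RNA processing and stability, from MPTP-SU to MPTP-SU+T) and at most 1 higher.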

How the data were processed

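Poly(A) RNA of 20 midbrain and 20 spinal cord libraries was prepared with the CORALL kit and sequenced with paired ends. The authors deposited estimated counts per gene and library; their processing notes name fastp, STAR, Salmon and GATK, with build GRCm39, and give no versions. These expected counts were cut to whole numbers here by dropping any fraction, and groups were taken from the labels. Genes were filtered with filterByExpr, scaled by TMM and fitted with the quasi-likelihood test of edgeR 4.0.16 (R 4.3.3) on the 20 libraries of a tissue, or on all 40 for comparisons between tissues, with Benjamini-Hochberg adjustment over all genes tested. A gene was called at an adjusted p below 0.05 with more than 1.5-fold. Levels are TMM-scaled CPM, set within each tissue. Alternatives were DESeq2 1.42.0, limma-voom (limma 3.58.1), other scalings and filters, a replicate block and the leaving out of single libraries. The scripts were tested on simulated data. Exact permutation tests went through every arrangement of the libraries, and the Wilson intervals came from SciPy 1.17.1. Over 60 pairs of replicates, chi-square per degree of freedom was 2.76 or more, so no pair agreed within sampling noise.

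The members and the gene lists were chosen with earlier results of these data known. All 6 members were named; of each list, the called genes were counted and at most the 2 with the smallest p named per comparison, and the 5 genes most like the members per tissue were ranked by rho_p. Sequences and lengths came from GENCODE M21, build GRCm38, matched by symbol for all 6; no coordinates are given because the builds differ.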

Additional observations from a re-analysis of the deposited data

Results flagged for a closer look

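In groups of 4 libraries, a value was set aside for a closer look where the gap to its nearest neighbour was a larger part of the range of the group than Dixon's 95% limit allows. This held in 8 of 120 groups tested, 3 of 60 for levels and 5 of 60 for shares; chance gives about 1 in 20.

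Midbrain MPTP-Veh replicate 4 accounts for 3 of the 8. ND3 stood there at 361 CPM, below 1021 to 1082 CPM in its group. Its ND1 share of the mitochondrial mRNA counts was 6.39%, with the nearest library of its group at 8.31%, and its ND3 share was 2.37%, with the nearest at 0.915%. ND3 was thus low in level and high in share in this library.

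In spinal cord, ND4 stood at 16463 CPM in Con replicate 2, with the nearest library of that group at 12977, and at 15212 CPM in MPTP-SU+S replicate 1, with the nearest at 20752. The ND1 share was 9.08% in spinal cord MPTP-Veh replicate 2, with the nearest at 8.73%. The ND5 share was 6.91% in spinal cord MPTP-SU+T replicate 1, with the nearest at 7.62%. The ND1 share was 8.81% in midbrain Con replicate 1, with the nearest at 8.40%.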

How the results depend on the processing

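Fold changes of members were tallied in 9 of the 15 comparisons. Left out were the midbrain comparisons among the groups given SUEHP and the spinal cord comparisons of MPTP-SU with MPTP-Veh and MPTP-SU+S. The tissue difference for MPTP-SU against MPTP-Veh was also left out, where ND2 went from 0.175 to -0.171 without midbrain MPTP-Veh replicate 4. A change of sign was not counted where both log2 fold changes lay within 0.05 of 0. By this rule, under another scaling, filter, tool or set of groups, 530 fold changes of members kept their direction and their side of the threshold. Under these settings 9 newly passed it and 1 no longer did. With single replicates left out, 989 were kept, 8 newly passed, 5 no longer did and 12 changed sign by that rule. These include fits without midbrain MPTP-Veh replicate 4 that also had a replicate block or only the groups compared. In spinal cord from MPTP-SU+S to MPTP-SU+T, 1 member was called; with the adjusted p alone there were 6, with the library size alone 0, with a library size that leaves out mitochondrial and haemoglobin genes 4, and without single replicates 0 to 5. From MPTP-SU to MPTP-SU+T the adjusted p alone gave 1 member in place of 0. The difference between tissues in MPTP-Veh against Con had 0 to 1 members called without single replicates, the 1 being ND4 without midbrain MPTP-Veh replicate 3. The share of all genes called in each fit is not given beside these counts of members. Using the adjusted p alone drops the fold limit by construction; the cause of the other moves was not tested.

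From MPTP-Veh to MPTP-SU in midbrain, the log2 fold changes without single replicates spanned -0.0976 to 0.520 for ND2, -0.0228 to 0.624 for ND4, -0.136 to 0.463 for ND4L and -0.0651 to 0.545 for ND5, the lowest each time without MPTP-Veh replicate 4. With only the groups compared and without that library they were -0.105 for ND2, -0.0305 for ND4, -0.144 for ND4L and -0.0729 for ND5. In spinal cord from Con to MPTP-Veh, ND3 spanned -0.0585 (without Con replicate 3) to 0.18.

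The replicate numbers were not treated as pairs. The correlation of same-numbered deviations exceeded 0.1 in 13 of 40 pairs in midbrain, 6 of 40 in spinal cord and 4 of 20 between the tissues. In midbrain its median was 0.024, against -0.009 for different numbers. There 10 of 20 midbrain libraries were nearest to their own number, beside 4 of 20 in spinal cord, and no count expected by chance was set beside these. A fit with a replicate block called 1 member from MPTP-SU+S to MPTP-SU+T in spinal cord, with 34 genes called in place of 20; from MPTP-SU to MPTP-SU+T it called 0 members. The replicate block without midbrain MPTP-Veh replicate 4 gave -0.0570 for ND2, -0.0864 for ND4L and -0.0219 for ND5 from MPTP-Veh to MPTP-SU.

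The groups of 4 limit what can be seen: exact tests of 4 against 4 cannot go below 0.0286. Scaling by a library size without mitochondrial and haemoglobin genes put the median log2 fold change of all genes at -0.164 in midbrain MPTP-Veh against Con and at 0.119 between the Con groups of the tissues. With that scaling or library size alone, 42 mean levels of members by group moved by the SD of the group or more, and 78 did not.

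Counts of genes called over the whole table moved by more than 1.5 times in several comparisons. From MPTP-SU to MPTP-SU+T in spinal cord, 4 genes became 27 with no low-count filter and 13 with only the groups compared; from MPTP-SU+S to MPTP-SU+T, 20 became 39 with no filter, 4 with DESeq2, 3 with library size alone and 511 with the adjusted p alone. In midbrain, MPTP-Veh against Con went from 3 to 446 with DESeq2 and 0 with limma-voom, MPTP-SU against MPTP-Veh from 2237 to 0 with only the groups compared, and MPTP-SU against Con from 127 to between 208 and 768 under other settings and to between 11 and 786 without single replicates, the highest without MPTP-Veh replicate 4. The difference between the tissues went from 427 to between 0 and 1361 genes under other settings for MPTP-Veh against Con, and from 2115 to 43 with only the groups compared for MPTP-SU against MPTP-Veh. Between the Con groups, 2859 became 5187 with the adjusted p alone. In the spinal cord comparisons with 0 calls, no low-count filter gave up to 19. Without single replicates the counts ran from 0 to 1093 for midbrain MPTP-Veh against Con, 572 to 3543 for MPTP-SU against MPTP-Veh, 1 to 51 for spinal cord MPTP-SU+T against MPTP-SU+S, 0 to 6 for MPTP-SU+T against MPTP-SU and 0 to 58 for MPTP-Veh against Con. The differences between the tissues ran from 1 to 2718 and from 688 to 3775 genes.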

Other observations

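Mitochondrial tRNAs and rRNAs also stood apart in midbrain MPTP-Veh replicate 4. Mitochondrial tRNA genes summed to 1620 CPM of the library total there, against 120 to 419 in the other 19 midbrain libraries and 84.6 to 283 in spinal cord. Mitochondrial rRNA took 0.384% of its counts, against 1.58% to 4.26% in the others. The mRNAs and rRNAs of that library were thus low while its tRNAs were high.

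In spinal cord the rRNA share ranged from 0.893% to 2.63%. It was 1.10% to 1.18% in MPTP-SU and 0.893% to 2.34% in MPTP-SU+T, so the ranges overlapped where the members' levels did not. The spinal cord tRNA sum was 141.2 to 227 CPM in MPTP-SU, 143 to 158 in MPTP-SU+S and 84.6 to 140.8 in MPTP-SU+T, lower in MPTP-SU+T without overlap as the members were, by a narrow margin to MPTP-SU.

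Of the genes whose pattern was most like the members, the remaining 3 of the 5 per tissue were Acvr2a at 0.837, Gpm6a at 0.837 and BC002059 at 0.831 in midbrain, and Gucy1a2 at 0.914, Arhgap5 at 0.904 and Olfm3 at 0.903 in spinal cord, as the coefficient rho_p.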
